A study of Homo sapiens with 8 samples.

Results

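The G2/M and mitosis genes are 44 genes that act from entry into mitosis to the separation of the daughter cells, taken by gene symbol from the deposited table of read counts. All 44 were among the 32803 genes of that table, and all 44 were among the 16221 genes with enough reads to test. They were described in 8 RNA-seq libraries of ovarian cancer cells grown without drug, with 2 libraries in each of 4 groups. Resistant deficient cells are Olres-UWB1.289 at passage 56, a line resistant to inhibitors of the DNA repair enzyme PARP, and parental deficient cells are UWB1.289 at passage 29, an ovarian carcinoma line without functional BRCA1. Resistant proficient cells are Olres-UWB1.289+BRCA1 at passage 45, and parental proficient cells are UWB1.289+BRCA1 at passage 10, the same line with BRCA1 put back. Each resistant line was thus at a later passage than its parent, so that resistance and time in culture cannot be told apart, and BRCA1 state and passage cannot be told apart between the parental lines or between the resistant lines. Whether each resistant line is 1 clone or a mixture is not given in the sources used here, nor is whether the 2 libraries of a group came from separate cultures, so p-values measure the spread between libraries, which may be technical.

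A dividing cell passes from DNA synthesis through G2 into mitosis when the kinase CDK1, bound to a B-type cyclin, becomes active. CDC25 phosphatases remove the inhibitory phosphates from CDK1, and polo-like kinase 1 and the Aurora kinases drive centrosome maturation, spindle assembly and chromosome attachment. The spindle checkpoint holds anaphase until every kinetochore is attached, after which CDC20 and the anaphase-promoting complex mark securin and cyclin B for destruction and the midzone and contractile ring split the cell. Most of these genes are transcribed late in the cell cycle. Their promoters are known for the cell cycle genes homology region, abbreviated CHR, which is bound by the MuvB complex together with B-MYB or the pocket proteins, and for CCAAT boxes, which are bound by NF-Y.

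The promoters of 4 members are shown because they hold both elements and because their genes behaved differently in these cells. PLK1 and HMMR had steep falls in resistant BRCA1-proficient cells, KIF4A fell in resistant BRCA1-deficient cells, and CCNB2 fell in both. Each line gives the 250 bases before the gene start on the plus strand, from RefSeq in the build GRCh38.p14. Capitals mark the CHR, searched as TTTGAA or TTCGAA, and the CCAAT box, all on both strands, so that a CCAAT box on the other strand reads ATTGG.
PLK1 (chr16:23678639-23678888): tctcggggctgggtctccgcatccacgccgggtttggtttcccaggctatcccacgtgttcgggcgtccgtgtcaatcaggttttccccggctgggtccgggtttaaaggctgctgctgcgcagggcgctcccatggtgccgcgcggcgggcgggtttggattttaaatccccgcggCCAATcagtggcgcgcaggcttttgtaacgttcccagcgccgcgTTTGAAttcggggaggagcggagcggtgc
HMMR (chr5:163460382-163460631): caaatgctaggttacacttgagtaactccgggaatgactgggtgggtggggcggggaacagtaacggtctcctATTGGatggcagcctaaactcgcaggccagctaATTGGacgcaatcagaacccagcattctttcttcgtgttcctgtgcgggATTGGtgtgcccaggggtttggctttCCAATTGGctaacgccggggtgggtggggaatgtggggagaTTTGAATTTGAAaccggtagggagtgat
CCNB2 (chr15:59104896-59105145): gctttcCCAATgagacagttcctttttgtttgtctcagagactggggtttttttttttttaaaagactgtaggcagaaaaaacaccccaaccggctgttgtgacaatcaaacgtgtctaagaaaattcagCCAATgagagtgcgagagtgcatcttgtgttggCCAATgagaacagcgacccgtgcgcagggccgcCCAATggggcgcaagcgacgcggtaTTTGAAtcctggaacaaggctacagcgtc
KIF4A (chrX:70289854-70290103): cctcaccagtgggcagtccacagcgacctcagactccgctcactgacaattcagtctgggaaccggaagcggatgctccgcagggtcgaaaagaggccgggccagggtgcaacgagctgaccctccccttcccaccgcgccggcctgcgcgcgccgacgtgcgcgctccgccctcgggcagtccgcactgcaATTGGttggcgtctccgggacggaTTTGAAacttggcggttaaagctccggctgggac
The CHR began 29 bases before the start in PLK1 and CCNB2, and 34 bases before it in KIF4A. HMMR held 2 copies in direct succession, 28 and 22 bases before the start, and 5 CCAAT boxes, of which the last 2 shared bases. RefSeq's table held windows, 250 bases before to 50 bases after the start, for 39 of the 44 members. A CHR was present in 28 of these 39 windows, or 71.8%, compared with 11.6% of the windows of 12152 genes tested and 16.6% of all 27305 windows in the table. The form TTTGAA alone was in 69.2% of member windows and 10.1% of tested genes' windows. CCAAT was in 76.9% of member windows and 36.4% of tested genes' windows, and a CHR together with CCAAT was in 61.5% and 4.98%. Of 38 CHR matches in the member windows, 26 lay between 60 bases before and 50 bases after the start, and 1 shared a base with a CCAAT match. The 28 members with a CHR had a median log2 fold change of -0.35 between resistant and parental deficient cells and -0.60 between resistant and parental proficient cells. The 11 without a match in the window searched had medians of -0.20 and -0.77. Among these, CDC25B and CDC25C had 4 windows each, and AURKB and PTTG1 had 2 each, of which only the first was searched. A match is a description of the letters and does not show binding. AURKA, TPX2, BIRC5, TTK and UBE2C were not matched to a window.

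The libraries held between 24094821 and 34394107 counted reads. BRCA1 itself, the check of the labels, was at 2176 and 2365 CPM (read counts scaled to a common library size with TMM factors) in resistant proficient cells and 212 and 191 CPM in parental proficient cells, against 34.7 and 34.8 CPM in resistant deficient cells and 36.1 and 35.1 CPM in parental deficient cells. Of 10 markers of Mullerian epithelial carcinoma, 9 were at 1 CPM or more in every library, the exception being WT1. Summed fibroblast markers ranged from 4.52 to 59.2 CPM, leukocyte markers from 4.72 to 27.8 CPM and endothelial markers from 2.44 to 45.7 CPM, and their part in the results was not tested. The libraries also differed in base composition: across 13033 genes, the Spearman correlation of a gene's GC content with its deviation from its mean was 0.65 and 0.55 in resistant deficient, 0.33 and 0.15 in parental deficient, -0.28 and -0.46 in resistant proficient and -0.57 and -0.49 in parental proficient libraries. The members are AT-rich, with a median transcript GC content of 43.1% against 49.7% for all genes tested, and 34 of 44 lie below that median. Counts of members, classes and lists that rose or fell with resistance are therefore also given after each library's GC trend was removed. Counts of groups that do not overlap come from CPM without that removal.

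By CPM, without removal of the GC trend, the members stood highest in parental proficient cells among the 4 groups. Their summed level was 6775 and 7140 CPM in resistant deficient cells against 8603 and 8772 CPM in parental deficient cells, and 6941 and 7316 CPM in resistant proficient cells against 11130 and 10560 CPM in parental proficient cells. Both resistant groups lay below both parental groups, with no overlap, and the 2 resistant groups overlapped each other. Of the 44 members, 32 had their highest group mean in parental proficient cells, 7 in parental deficient, 3 in resistant deficient and 2 in resistant proficient cells. The lowest group was resistant deficient for 22 members, resistant proficient for 19 and parental deficient for 3. The same counts over all genes tested were not computed, and the order of the groups depends on the GC trend. With that trend removed, the median member was 0.08 higher on the log2 scale in parental proficient than in parental deficient cells, compared with 0.41 before. In bulk RNA, a smaller share of cells in G2 and mitosis and less of these transcripts per such cell cannot be told apart.

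**Figure D1:**
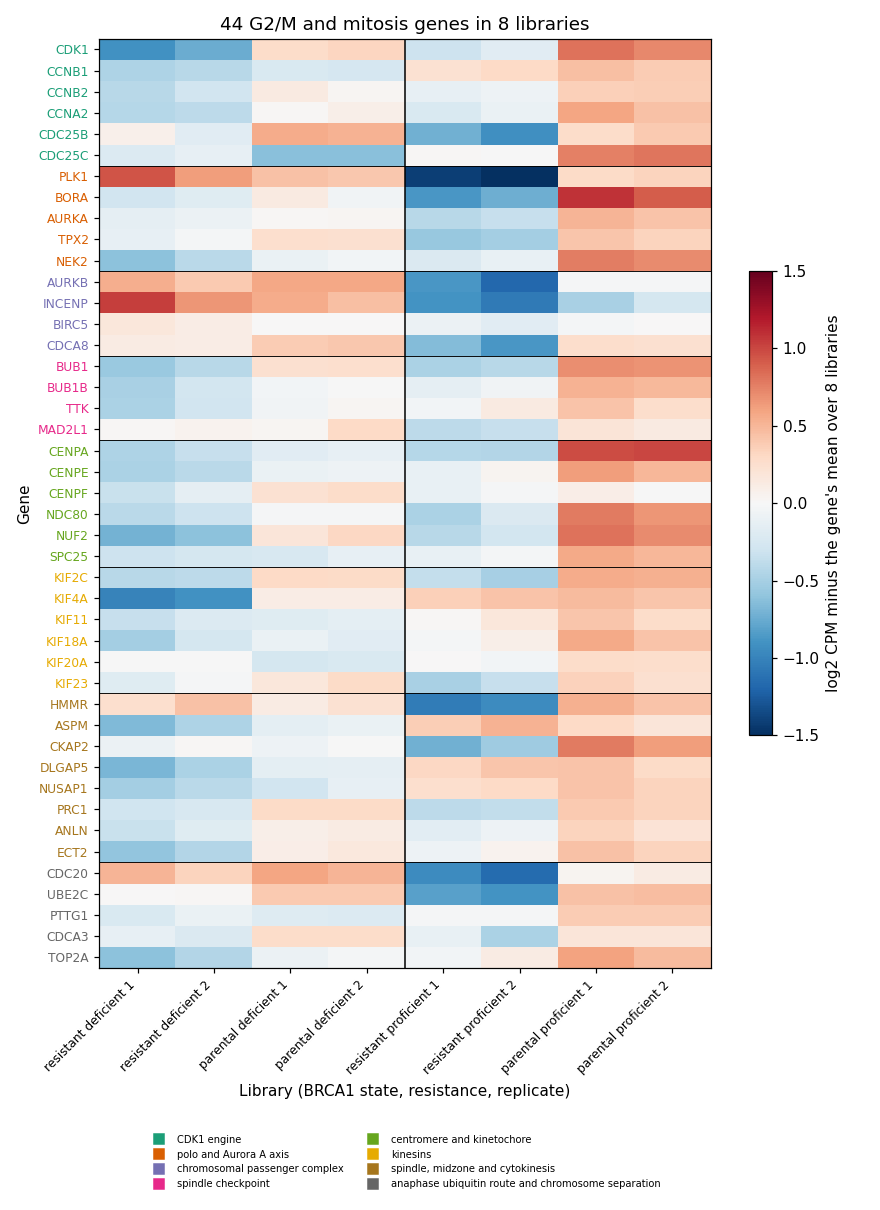
Heat map of log2 CPM, without removal of the GC trend, minus each gene's mean over the 8 libraries, for the 44 members in 8 functional classes (gene label colour) and libraries in columns by group and replicate. The columns of parental proficient cells are mostly red, with 41 of 44 members above their own mean in each library, and the strongest blue is that of PLK1 in resistant proficient cells.

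In BRCA1-proficient cells, 37 of 44 members fell with resistance and none rose (84.1% fell; edgeR quasi-likelihood, adjusted p under 0.05), where 27.8% of all genes tested fell and 25.9% rose. The median member changed by -0.64 on the log2 scale, and the median of all genes tested was 0.00. Both resistant libraries lay below both parental libraries for 41 members, as they did for 38.6% of genes tested, and above them for 1 member, ASPM, as for 37.8% of genes tested. Once the GC trend was removed, 38 members fell and 2 rose, beside 31% and 32.7% of genes, and the median was -0.59. All 37 that fell in the first fit also fell in the second.

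In BRCA1-deficient cells, 28 members fell with resistance and 4 rose, where 27% of all genes tested fell and 28.9% rose. The median member changed by -0.33 and the median gene by 0.03. Both resistant libraries lay below both parental libraries for 35 members, beside 37.8% of genes tested, and above them for 6, beside 40.8%. After removal of the GC trend, 22 fell and 11 rose, beside 27.4% and 32.3% of genes, and the median was -0.10. Of the 28, 19 fell in both fits. The median of the list in deficient cells was thus over 3 times smaller with the GC trend removed, while that in proficient cells kept most of its size.

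The members that moved were partly different in the 2 lines. Falls in both comparisons were found for 22 of the 44 members, beside 13.2% of genes tested, and for 18 members with the GC trend removed, beside 13.2% of genes. A further 11 fell in proficient cells and did not pass in deficient cells, 6 fell in deficient cells and did not pass in proficient cells, and 4 rose in deficient cells and fell in proficient cells, a number that was 11 with the GC trend removed. BIRC5 passed in neither comparison. The shares of all genes tested that moved in a single line, or in opposite directions, were not computed, so these counts have no background beside them. Across the 44 members the 2 sets of log2 fold changes, which share no library, had a Pearson correlation of -0.11 and a Spearman correlation of -0.08.

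**Figure D2:**
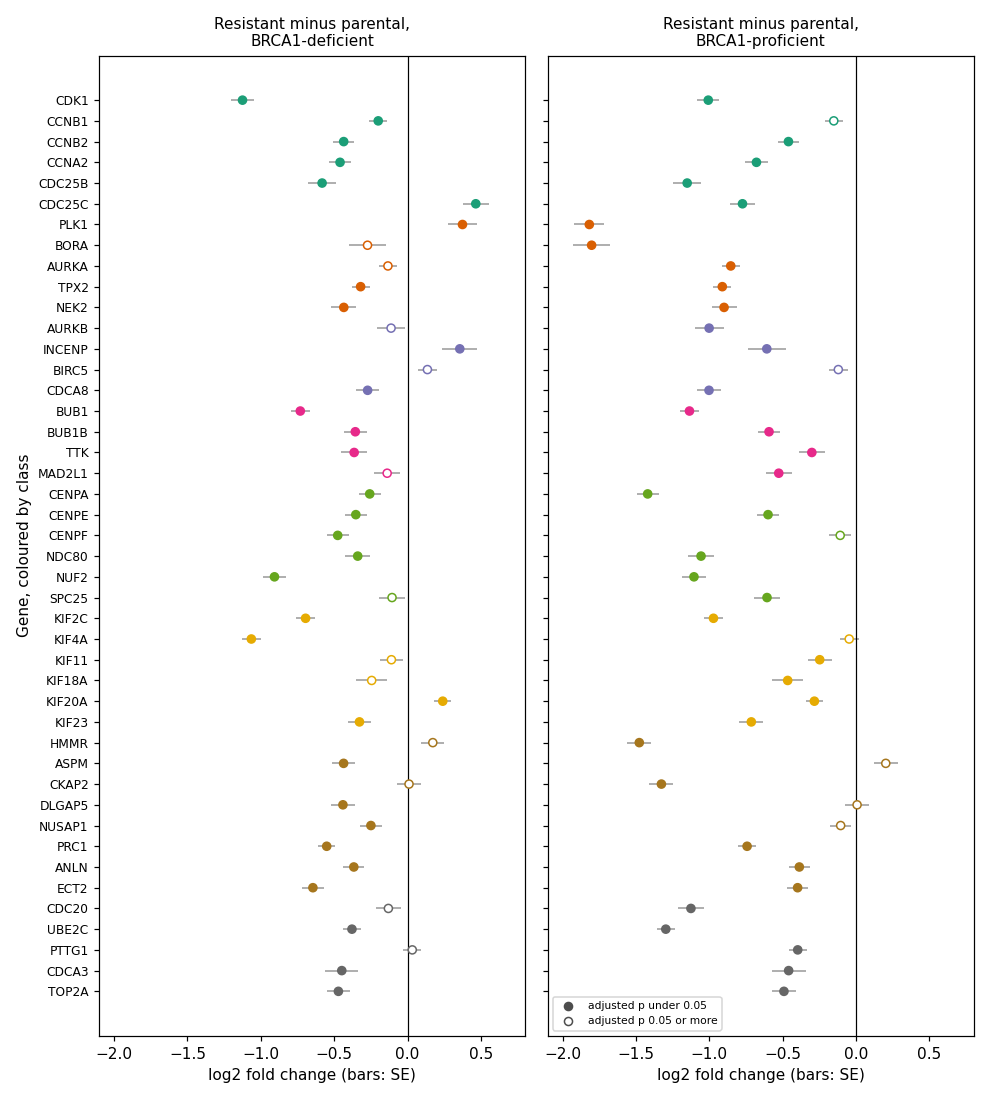
Log2 fold change (x axis, bars are SE) of each member (y axis, coloured by class) in resistant against parental BRCA1-deficient cells, left, and BRCA1-proficient cells, right; filled points have an edgeR adjusted p under 0.05. PLK1 stands at 0.37 on the left and -1.82 on the right, and KIF4A at -1.06 and -0.05.

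Most of the CDK1 engine was lower in both resistant lines. Of its 6 genes, 5 fell and 1 rose in deficient cells, and 5 fell in proficient cells. When the GC trend was removed, 4 fell and 1 rose in deficient cells, and 5 fell in proficient cells. CDK1, the kinase that drives entry into mitosis, was at 154 and 171 CPM in resistant deficient cells, against 348 and 360.4 CPM in parental deficient cells. It was at 231 and 256 CPM in resistant proficient cells, against 504 and 474 CPM in parental proficient cells. In both lines the resistant libraries were well below the parental ones, and the change was -1.12 ± 0.08 (SE) on the log2 scale in deficient cells (edgeR adjusted p = 7.61e-07) and -1.01 ± 0.08 (SE) in proficient cells (edgeR adjusted p = 9.05e-07). Of the cyclins that bind it, CCNB2 fell by 0.44 in deficient and 0.46 in proficient cells, and CCNA2 fell by 0.46 in deficient and 0.68 in proficient cells. With the GC trend removed the changes of CCNB2 were -0.21 in deficient and -0.40 in proficient cells, and their difference, -0.19, passed. CCNB1 fell by 0.20 in deficient cells, a change that was 0.04 and did not pass once the GC trend was removed, and stood at -0.15 ± 0.06 (SE) in proficient cells, where it did not pass (edgeR adjusted p = 0.0511). Its deficient change also did not pass without parental deficient replicate 1 (-0.19).

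The CDC25 phosphatases, which switch CDK1 on, split. CDC25B was at 89.4 and 75.7 CPM in resistant deficient cells, against 125 and 122 CPM in parental deficient cells, and its log2 fold change was -0.58 ± 0.09 (SE; edgeR adjusted p = 0.000368). In the other line it was at 51.7 and 44.8 CPM in resistant proficient cells, against 103 and 112 CPM in parental proficient cells, with a log2 fold change of -1.15 ± 0.10 (SE; edgeR adjusted p = 2.29e-06). CDC25B thus lay lower in both resistant lines, without overlap. CDC25C was at 27.4 and 29.04 CPM in resistant deficient cells, against 20.4 and 20.5 CPM in parental deficient cells, a rise of 0.46 ± 0.09 (SE; edgeR adjusted p = 0.00113), whereas it was at 31.9 and 31.5 CPM in resistant proficient cells, against 53.3 and 55.0 CPM in parental proficient cells, a change of -0.77 ± 0.09 (SE; edgeR adjusted p = 2.24e-05). Its 2 resistant lines ended at similar levels in CPM, and its 2 parental lines were far apart. With the GC trend removed, the log2 fold change of CDC25C from resistant deficient to resistant proficient cells was -0.22.

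Polo and Aurora A kinases and their activators fell in proficient cells, all 5 of 5, and went both ways in deficient cells, where 2 fell and 1 rose, or 2 fell and 2 rose with the GC trend removed. PLK1, the polo-like kinase itself, was at 56.9 and 49.6 CPM in resistant proficient cells, against 185 and 191 CPM in parental proficient cells. Resistant proficient cells held 3.53-fold less of it, the largest fall of any member there by log2 fold change (-1.82 ± 0.10 SE, edgeR adjusted p = 1.11e-07). In deficient cells PLK1 was at 291 and 235 CPM in resistant deficient cells, against 205 and 200.4 CPM in parental deficient cells, higher in both resistant libraries but with a wide gap between them (0.37 ± 0.10 SE, edgeR adjusted p = 0.00652). That rise was 0.19 and did not pass without resistant deficient replicate 1, nor did it pass without parental deficient replicate 2.

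BORA, the cofactor with which Aurora A activates PLK1, was at 10.2 and 11.3 CPM in resistant proficient cells, against 40 and 35.1 CPM in parental proficient cells (-1.80 ± 0.13 SE, edgeR adjusted p = 5.9e-07), and it lies on chromosome 13, which is described further on. In deficient cells it was at 15.4 and 16.6 CPM in resistant deficient cells, against 20.5 and 18.2 CPM in parental deficient cells and did not pass (-0.27 ± 0.12 SE, edgeR adjusted p = 0.081). NEK2, a kinase that loosens the link between centrosomes, was at 60 and 64.7 CPM in resistant proficient cells, against 119 and 114 CPM in parental proficient cells (-0.90), and at 45.5 and 52.8 CPM in resistant deficient cells, against 65.2 and 67.8 CPM in parental deficient cells (-0.43). NEK2 fell in both lines. TPX2, which activates Aurora A on spindle microtubules, fell in both as well, by 0.91 in proficient and 0.32 in deficient cells. AURKA, Aurora A itself, fell by 0.85 in proficient cells and stood at -0.13 in deficient cells (edgeR adjusted p = 0.0799). AURKA passed as a deficient fall, of 0.16 to 0.19, without resistant deficient replicate 2 or either resistant proficient library, and as a deficient rise, of 0.10, with the GC trend removed, so that no direction is given for it there.

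In the chromosomal passenger complex, which corrects faulty chromosome attachments and later guides cytokinesis, 3 of 4 genes fell in proficient cells, while 1 fell and 1 rose in deficient cells. With the GC trend removed all 4 fell in proficient cells, and 3 fell and 1 rose in deficient cells. CDCA8, which encodes borealin, was at 55.6 and 47.4 CPM in resistant proficient cells, against 104 and 102 CPM in parental proficient cells (-1.0 ± 0.08 SE, edgeR adjusted p = 1.59e-06), and at 95.1 and 94.0 CPM in resistant deficient cells, against 114 and 115 CPM in parental deficient cells (-0.27 ± 0.08 SE, edgeR adjusted p = 0.0118). AURKB, the kinase of the complex, averaged 33.9 ± 5.04 CPM in resistant proficient and 68.0 ± 0.242 CPM in parental proficient cells (SD, n = 2 each), and its fall of 1.0 on the log2 scale was close to that of CDCA8. The complex's survival-linked subunit BIRC5 was at 104 and 98.2 CPM in resistant proficient cells, against 108 and 112 CPM in parental proficient cells, and at 124 and 119.7 CPM in resistant deficient cells, against 111 and 111 CPM in parental deficient cells. Its changes of -0.12 ± 0.06 (SE) and 0.14 ± 0.06 (SE) did not pass (edgeR adjusted p = 0.138 and 0.0948), although with the GC trend removed it fell in proficient cells and rose in deficient cells.

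INCENP, the scaffold of the complex, was at 29.1 and 25.9 CPM in resistant proficient cells, against 38.7 and 45.2 CPM in parental proficient cells (-0.61 ± 0.13 SE, edgeR adjusted p = 0.00198). In deficient cells it was at 111 and 86.1 CPM in resistant deficient cells, against 79.6 and 74.4 CPM in parental deficient cells, and it passed as a rise (0.36 ± 0.12 SE, edgeR adjusted p = 0.0262). INCENP is the most GC-rich member, at 59.6%, and with the GC trend removed that direction turned, to -0.16. Without resistant deficient replicate 1 the rise was 0.13 and did not pass, nor did it pass without either parental deficient library (0.40 and 0.28).

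All 4 spindle checkpoint genes fell in proficient cells and 3 of 4 fell in deficient cells. Once the GC trend was removed, all 4 again fell in proficient cells, but 1 fell and 1 rose in deficient cells. BUB1, a checkpoint kinase at the kinetochore, had the largest change of the class in both lines. It was at 183 and 202 CPM in resistant deficient cells, against 319 and 321 CPM in parental deficient cells (-0.73 ± 0.06 SE, edgeR adjusted p = 5.42e-06). It was at 194 and 202 CPM in resistant proficient cells, against 438 and 432 CPM in parental proficient cells (-1.14 ± 0.07 SE, edgeR adjusted p = 1.3e-07). Neither pair of groups overlapped, and the 2 resistant lines met at about the same level in CPM. With the GC trend removed, the log2 fold change of BUB1 from resistant deficient to resistant proficient cells was -0.48. BUB1B, which encodes the checkpoint inhibitor BUBR1, fell by 0.36 in deficient and 0.59 in proficient cells, and TTK, the kinase that starts the checkpoint signal, fell by 0.36 in deficient and 0.30 in proficient cells. After removal of the GC trend the deficient falls of BUB1B and TTK no longer passed, and TTK did not pass in proficient cells without resistant proficient replicate 1 (-0.16) or parental proficient replicate 1 (-0.19). MAD2L1, whose product binds and restrains CDC20, fell by 0.53 in proficient cells and stood at -0.14 in deficient cells (edgeR adjusted p = 0.201). Without parental deficient replicate 1 its deficient change was -0.27 and passed, while with the GC trend removed it passed as a rise, of 0.16, so that no direction is given for it in deficient cells.

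Among the 6 centromere and kinetochore genes, 5 fell in each line. When the GC trend was removed, 5 fell in proficient cells, but 2 fell and 1 rose in deficient cells, where the class median was -0.06 compared with -0.35 before. CENPA, the histone H3 variant that marks centromeres, was at 41.2 and 40.9 CPM in resistant proficient cells, against 109 and 111 CPM in parental proficient cells, a 2.68-fold lower level (-1.42 ± 0.08 SE, edgeR adjusted p = 7.78e-08). In deficient cells CENPA was at 40.1 and 43.5 CPM in resistant deficient cells, against 49.1 and 51.0 CPM in parental deficient cells (-0.26 ± 0.08 SE, edgeR adjusted p = 0.0129). This smaller change was -0.06 and did not pass with the GC trend removed, nor did it pass without resistant deficient replicate 1 (-0.23) or parental deficient replicate 2 (-0.26). The high level in parental proficient cells set CENPA apart from the other 3 groups, which lay between 40.1 and 51.0 CPM.

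NUF2, NDC80 and SPC25 belong to the NDC80 complex, the part of the kinetochore that grips microtubules. NUF2 was at 51.7 and 54.9 CPM in resistant deficient cells, against 95.8 and 104 CPM in parental deficient cells (-0.91 ± 0.08 SE, edgeR adjusted p = 5.78e-06). It was at 63.1 and 69.7 CPM in resistant proficient cells, against 148 and 138 CPM in parental proficient cells (-1.11 ± 0.08 SE, edgeR adjusted p = 7.61e-07). NUF2 was thus 1.88-fold lower in resistant deficient and 2.15-fold lower in resistant proficient cells than in their parents. NDC80 fell by 1.06 in proficient cells and by 0.34 in deficient cells, and the deficient change did not pass with the GC trend removed. SPC25 fell by 0.61 in proficient cells and did not pass in deficient cells (-0.11), where it passed as a rise of 0.18 with the GC trend removed. CENPE, a kinetochore motor, fell by 0.35 in deficient and 0.60 in proficient cells, and the deficient change did not pass with the GC trend removed. CENPF, a large kinetochore protein, fell by 0.48 in deficient cells and stood at -0.11 in proficient cells (edgeR adjusted p = 0.249).

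Of the 6 kinesins, 5 fell in proficient cells, and 3 fell and 1 rose in deficient cells. With the GC trend removed 5 fell in proficient cells, and 2 fell and 2 rose in deficient cells. KIF4A, a chromosome-bound motor that also shapes the spindle midzone, was at 70.3 and 75.1 CPM in resistant deficient cells, against 152 and 152 CPM in parental deficient cells, a 2.09-fold lower level (-1.06 ± 0.07 SE, edgeR adjusted p = 4.66e-07). In proficient cells it was at 181 and 189.7 CPM in resistant proficient cells, against 196 and 188 CPM in parental proficient cells, and these groups overlapped (-0.05 ± 0.06 SE, edgeR adjusted p = 0.562). KIF2C, a microtubule depolymerase at centromeres, was at 132 and 119 CPM in resistant proficient cells, against 248 and 245 CPM in parental proficient cells (-0.97 ± 0.07 SE), and at 127 and 128 CPM in resistant deficient cells, against 207 and 206 CPM in parental deficient cells (-0.70 ± 0.06 SE). KIF2C fell in both lines. KIF20A, which carries the passenger complex to the midzone, was at 187 and 187 CPM in resistant deficient cells, against 156 and 160.1 CPM in parental deficient cells (0.24 ± 0.06 SE, edgeR adjusted p = 0.00485), and at 189 and 182 CPM in resistant proficient cells, against 227 and 225 CPM in parental proficient cells (-0.28 ± 0.06 SE, edgeR adjusted p = 0.00166). The changes of KIF20A were small and opposite, with no overlap of libraries in either line, though the rise, at 0.22, did not pass without parental deficient replicate 1. KIF23, a subunit of centralspindlin, fell by 0.71 in proficient and 0.33 in deficient cells, and the deficient change did not pass with the GC trend removed. KIF11, which pushes spindle poles apart, and KIF18A, which dampens chromosome oscillation, fell in proficient cells by 0.25 and 0.47 and did not pass in deficient cells. The KIF11 fall did not pass without resistant proficient replicate 1 (-0.12), parental proficient replicate 1 (-0.15) or parental deficient replicate 2 (-0.20), nor the KIF18A fall without parental proficient replicate 1 (-0.36). Leaving out resistant deficient replicate 2 (-0.40) or either resistant proficient library (-0.27 each) made KIF18A pass in deficient cells, as a fall.

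**Figure D3:**
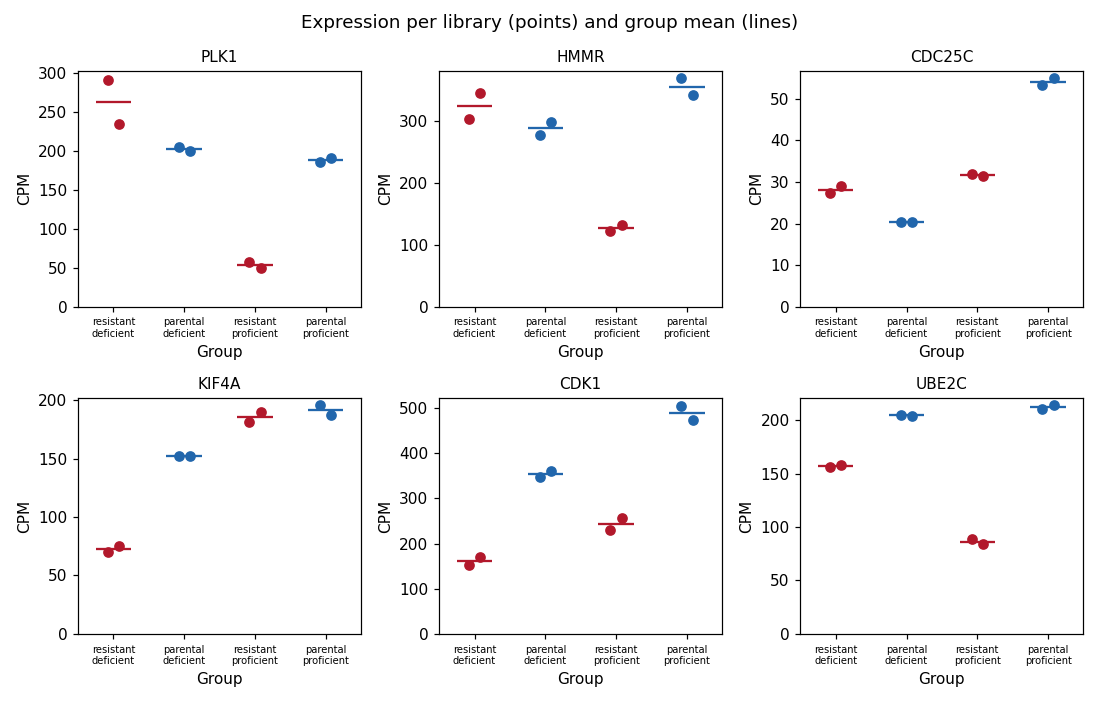
CPM per library (points) and group mean (lines) of 6 members in the 4 groups, resistant in red and parental in blue. PLK1 and HMMR are lowest in resistant proficient cells, KIF4A is lowest in resistant deficient cells, CDC25C is highest in parental proficient cells, and CDK1 and UBE2C are below the parent in both resistant lines.

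Of the 8 genes of the spindle, midzone and contractile ring, 6 fell in deficient and 5 in proficient cells, and 3 genes fell in both: PRC1, ANLN and ECT2. Once the GC trend was removed, 4 fell and 2 rose in deficient cells, and 5 fell and 2 rose in proficient cells. PRC1 and ECT2 were then the only genes of this class that fell in both. HMMR, a microtubule-binding protein of the spindle poles, was at 123 and 133 CPM in resistant proficient cells, against 369 and 342 CPM in parental proficient cells, 2.79-fold lower (-1.48 ± 0.08 SE, edgeR adjusted p = 9.45e-08). In deficient cells HMMR was at 304 and 346 CPM in resistant deficient cells, against 278 and 299 CPM in parental deficient cells, with both resistant libraries above both parental ones, and it did not pass (0.17 ± 0.08 SE, edgeR adjusted p = 0.0845). It passed as a rise with the GC trend removed, at 0.49, and without resistant deficient replicate 1, at 0.23. CKAP2, a microtubule-associated protein of the spindle, was at 171 and 196 CPM in resistant proficient cells, against 483 and 436 CPM in parental proficient cells (-1.33 ± 0.08 SE, edgeR adjusted p = 2.13e-07). In deficient cells it was at 266 and 286 CPM in resistant deficient cells, against 267 and 281 CPM in parental deficient cells, with overlapping groups (0.01 ± 0.08 SE, edgeR adjusted p = 0.927). It passed there as a rise, of 0.33, with the GC trend removed. CKAP2 lies on chromosome 13, as BORA does.

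ECT2, the exchange factor that activates RhoA for cleavage, was at 248 and 275 CPM in resistant deficient cells, against 401 and 418 CPM in parental deficient cells (-0.65 ± 0.07 SE, edgeR adjusted p = 3.48e-05), and at 354 and 389 CPM in resistant proficient cells, against 507 and 473 CPM in parental proficient cells (-0.40 ± 0.07 SE, edgeR adjusted p = 0.000825). PRC1, which bundles midzone microtubules, fell by 0.55 in deficient and 0.74 in proficient cells, and ANLN, the ring scaffold anillin, by 0.37 and 0.39. The deficient fall of ANLN did not pass with the GC trend removed. The other 3 genes, ASPM at spindle poles, DLGAP5 on kinetochore fibres and NUSAP1 on spindle microtubules, fell in deficient cells by 0.44, 0.44 and 0.25. The fall of NUSAP1 did not pass without parental deficient replicate 2 (-0.20) or with the GC trend removed. None of them passed in proficient cells, where ASPM was at 440.2 and 488 CPM in resistant proficient cells, against 421 and 386 CPM in parental proficient cells (0.20 ± 0.08 SE, edgeR adjusted p = 0.0534). ASPM was the only member higher in both resistant proficient libraries than in both parental ones, and it passed as a rise, of 0.25 to 0.33, in 5 of the 8 fits that left out 1 library. After removal of the GC trend ASPM and DLGAP5 passed as rises in proficient cells, at 0.35 and 0.14.

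The 5 genes of the anaphase ubiquitin route and of chromosome separation all fell in proficient cells, and 3 fell in deficient cells. When the GC trend was removed, all 5 fell in proficient cells, and 4 fell and 1 rose in deficient cells. UBE2C, the ubiquitin-conjugating enzyme of the anaphase-promoting complex, was at 88.9 and 83.8 CPM in resistant proficient cells, against 210.4 and 214 CPM in parental proficient cells, 2.46-fold lower (-1.30 ± 0.06 SE, edgeR adjusted p = 3.65e-08). It was at 156 and 158 CPM in resistant deficient cells, against 205 and 204 CPM in parental deficient cells, 1.3-fold lower (-0.38 ± 0.06 SE, edgeR adjusted p = 0.000328). UBE2C replicates were close in every group. CDC20, the activator of that complex, was at 92.1 and 79.2 CPM in resistant proficient cells, against 182 and 192 CPM in parental proficient cells (-1.13 ± 0.09 SE), and at 252 and 222 CPM in resistant deficient cells, against 267 and 252 CPM in parental deficient cells (-0.13 ± 0.08 SE). CDC20 fell in proficient cells and did not pass in deficient cells, where it fell by 0.46 with the GC trend removed and by 0.25 without resistant deficient replicate 1.

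TOP2A, the topoisomerase that untangles sister chromatids, was at 417 and 471 CPM in resistant deficient cells, against 604 and 627 CPM in parental deficient cells (-0.47 ± 0.08 SE, edgeR adjusted p = 0.000519), and at 624 and 699 CPM in resistant proficient cells, against 973 and 888 CPM in parental proficient cells (-0.49 ± 0.08 SE, edgeR adjusted p = 0.00034). The 2 falls of TOP2A were of like size in this fit, and with the GC trend removed they were -0.17 in deficient and -0.36 in proficient cells. CDCA3, which helps trigger mitotic entry, fell by 0.45 in deficient and 0.46 in proficient cells, and its proficient fall did not pass without resistant proficient replicate 2 (-0.26). PTTG1, which encodes securin, fell by 0.40 in proficient cells and stood at 0.03 in deficient cells (edgeR adjusted p = 0.677). With the GC trend removed it passed as a rise of 0.22 in deficient cells.

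Whether resistance moved a member differently in the 2 lines was tested directly, as the proficient fold change minus the deficient one. Of 44 members, 24 had a lower proficient effect and 4 a higher one, beside 25.3% and 21.4% of genes tested, and with the GC trend removed the counts were 33 and 4, beside 29.3% and 26.1%. PLK1 had the largest difference, -2.19 ± 0.14 (SE; edgeR adjusted p = 6.08e-07), followed by HMMR at -1.65 ± 0.11 (SE; edgeR adjusted p = 1.02e-06). CKAP2 differed by -1.34 ± 0.11 (SE; edgeR adjusted p = 5.11e-06). KIF4A went the other way, at 1.02 ± 0.09 (SE; edgeR adjusted p = 7.72e-06). All 5 genes of the polo and Aurora A class and all 4 of the passenger complex had a lower proficient effect, and this held with the GC trend removed. For BIRC5 (-0.26) it did not hold with the replicate block (edgeR adjusted p = 0.0509), RLE factors (0.0501), library totals, either other filter or DESeq2, nor without any 1 of the 8 libraries. For NEK2 it did not hold without resistant deficient replicate 2, resistant proficient replicate 1 or parental proficient replicate 1 (-0.37 to -0.28). The 4 members with a higher proficient effect were KIF4A, ASPM, DLGAP5 and CENPF, of which DLGAP5 (0.38) and CENPF (0.31) did not pass without parental proficient replicate 2. The test did not pass for CDK1, with a difference of 0.12 ± 0.11 (SE; edgeR adjusted p = 0.39), nor for TOP2A, at -0.02 ± 0.11 (SE; edgeR adjusted p = 0.902). Without resistant deficient replicate 2 the CDK1 difference was 0.27 and passed, and with the GC trend removed the TOP2A difference was -0.19 and passed.

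The GC content of the members bore on the deficient comparison much more than on the proficient one. Across 13033 genes, log2 fold changes rose with GC content in deficient cells (Spearman 0.49), where genes below 43.5% GC had a median of -0.25 and genes above 56.8% GC one of 0.66. In proficient cells the correlation was 0.11, and the same sets had medians of -0.15 and 0.08. After removal of the trend, the deficient changes were -0.77 for CDK1, -0.85 for KIF4A, -0.61 for NUF2, -0.47 for BUB1 and -0.58 for KIF2C, and all 5 still passed. NEK2, ECT2 and TOP2A also still passed, at -0.18, -0.33 and -0.17, where their first values were -0.43, -0.65 and -0.47. CDC25B, which is GC-rich, fell further, to -1.05, and the rises of CDC25C, KIF20A and PLK1 stood at 0.68, 0.38 and 0.32. The 9 members that passed only before removal were CCNB1, BUB1B, TTK, CENPA, CENPE, NDC80, KIF23, NUSAP1 and ANLN. Another 10 passed only after it, AURKB and CDC20 as falls and AURKA, BIRC5, MAD2L1, SPC25, KIF11, HMMR, CKAP2 and PTTG1 as rises.

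**Figure D4:**
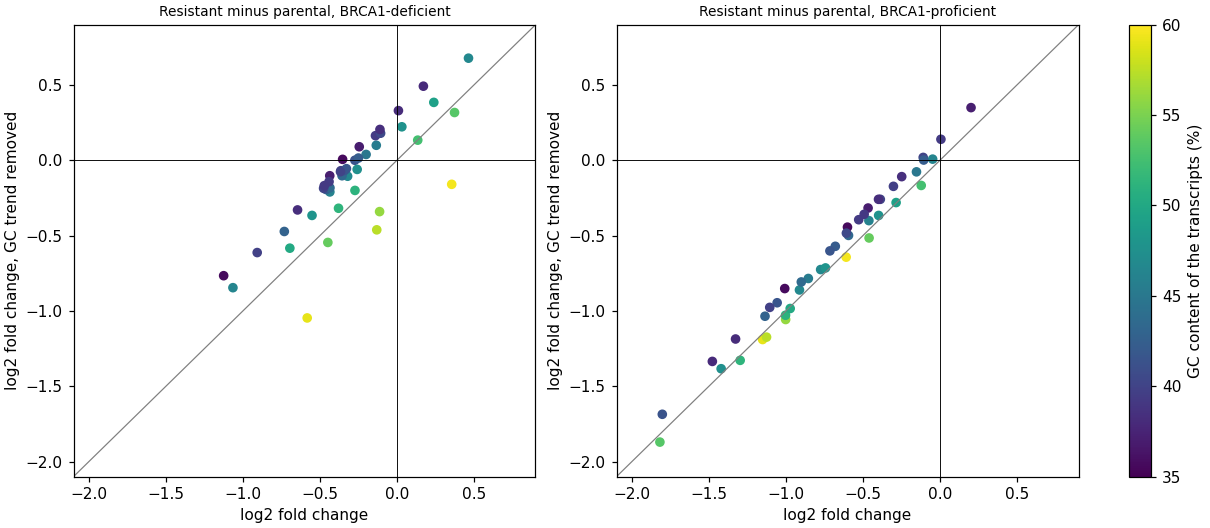
Log2 fold change before (x axis) and after (y axis) removal of each library's GC trend, 1 point per member coloured by transcript GC content, with the line of equality. In BRCA1-deficient cells, left, the GC-poor members lie above the line and the median moved to -0.10, compared with -0.33 before; in BRCA1-proficient cells, right, the points follow the line.

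Between the parental lines, which differ in BRCA1 and in passage, most members were higher in proficient cells: 29 rose and 4 fell in parental proficient relative to parental deficient cells, beside 32.3% and 30.1% of genes tested, with a median of 0.41. Without overlap of libraries, 33 were higher and 8 lower, beside 41.9% and 41.1% of genes tested. Removal of the GC trend left 17 higher and 11 lower, beside 31.7% and 32.2% of genes, with a median of 0.08. CDC25C had the largest rise, 1.41 ± 0.09 (SE; edgeR adjusted p = 2.49e-07), at 53.3 and 55.0 CPM in parental proficient against 20.4 and 20.5 CPM in parental deficient cells. CENPA rose by 1.14 and BORA by 0.96. These 3 rises still passed with the GC trend removed, at 1.18, 0.94 and 0.56. INCENP had the largest fall, -0.87 ± 0.12 (SE; edgeR adjusted p = 9.58e-05), at 38.7 and 45.2 CPM in parental proficient against 79.6 and 74.4 CPM in parental deficient cells. INCENP, AURKB and CENPF fell in both fits, while HMMR and ECT2 rose in the first fit and fell with the GC trend removed.

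Between the resistant lines, 19 members were higher and 15 lower in resistant proficient than in resistant deficient cells, beside 36.3% and 37.5% of genes tested. Without overlap, 22 were higher and 16 lower, beside 42.8% and 43.7%. Once the GC trend was removed, 6 were higher and 35 lower, beside 34.6% and 38.8%, and 13 members passed in opposite directions in the 2 fits, so that no direction is given for the list. Lower in both fits were 14 members, among them PLK1 at -2.30 ± 0.10 (SE; edgeR adjusted p = 7.25e-09), INCENP at -1.84 ± 0.13 (SE; edgeR adjusted p = 2.19e-07), AURKB at -1.49, CDC20 at -1.47 and HMMR at -1.35. KIF4A was higher, at 1.35 ± 0.07 (SE; edgeR adjusted p = 1.47e-08).

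The members lie on 18 chromosomes, and 1 of these moved as a whole in proficient cells. On chromosome 13 the median of 283 genes tested was -1.02 on the log2 scale between resistant and parental proficient cells, and 73.1% of them fell. The medians of the other chromosomes lay between -0.23 and 0.27. CKAP2 and BORA are the 2 members on chromosome 13, and their changes of -1.33 and -1.80 lay below that median. Set against the median of its own chromosome, each of 40 of 44 members was lower in resistant proficient cells, and the median over members after this subtraction was -0.64. The same subtraction in deficient cells left 40 of 44 members lower and a median of -0.28. There the chromosome medians ranged more widely, from -0.43 to 0.63. Of the 4 deficient rises, those of PLK1 (0.37) and KIF20A (0.24) lay below the medians of chromosomes 16 (0.45) and 5 (0.37). Those of CDC25C (0.46) and INCENP (0.36) lay above the medians of chromosomes 5 and 11 (-0.003). Among the deficient falls, that of CDCA3 (-0.45) lay closest to the median of its chromosome, 12 (-0.43). Over all genes the share below the median of their chromosome is fixed, since a median splits the genes evenly. Both subtractions used fold changes without removal of the GC trend. With that trend removed, and no chromosome median subtracted, the median over members was -0.10 in deficient cells and -0.59 in proficient cells. The cause of the chromosome 13 shift was not tested.

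**Figure D5:**
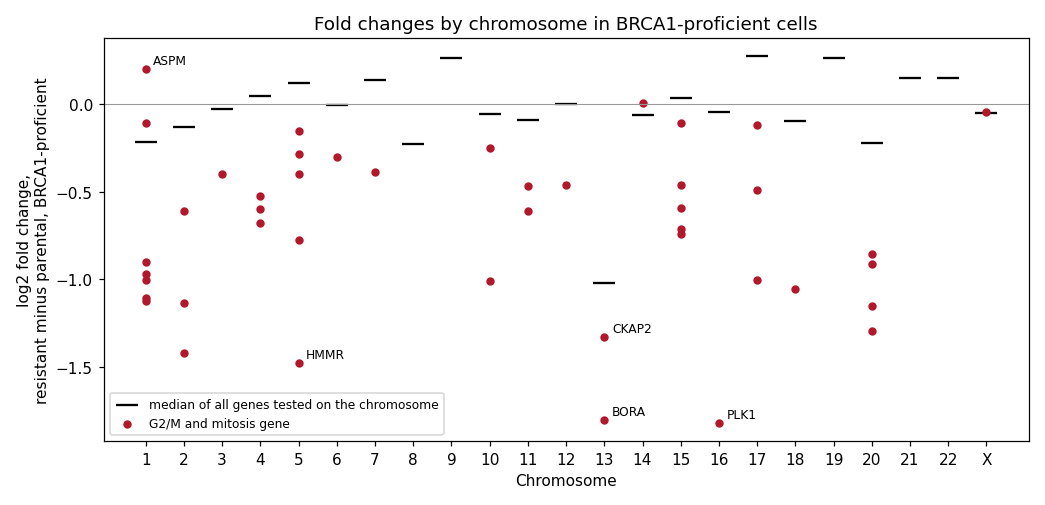
Log2 fold change in resistant against parental BRCA1-proficient cells (y axis) by chromosome (x axis), with a black bar for the median of all genes tested on the chromosome and a red point for each member. Chromosome 13 has a median of -1.02, and PLK1 on chromosome 16 and HMMR on chromosome 5 lie far below the medians of theirs.

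Genes that work beside the members were counted in lists of 157 genes. The shares of all genes tested were those given above: 27.8% fell and 25.9% rose in proficient cells, and 27% fell and 28.9% rose in deficient cells. After removal of the GC trend they were 31% and 32.7% in proficient cells, and 27.4% and 32.3% in deficient cells. Of 18 genes for transcription in G2/M, 11 fell and none rose in proficient cells, and 4 fell and 4 rose in deficient cells, where each was 22.2% of the list. When the GC trend was removed, 11 fell and none rose in proficient cells, and 5 fell and 8 rose in deficient cells. FOXM1, a transcription factor of mitotic genes, was at 88.0 and 76.4 CPM in resistant proficient cells, against 81.3 and 89.9 CPM in parental proficient cells, and at 90.8 and 88.7 CPM in resistant deficient cells, against 99.8 and 103 CPM in parental deficient cells. FOXM1 did not pass in either line (-0.06 ± 0.08 SE, edgeR adjusted p = 0.582, and -0.17 ± 0.08 SE, edgeR adjusted p = 0.0959). With the GC trend removed FOXM1 passed as a fall in deficient cells, at -0.32. MYBL2, which encodes B-MYB, was at 39.4 and 30.6 CPM in resistant proficient cells, against 49.6 and 58.2 CPM in parental proficient cells, and fell (-0.62 ± 0.14 SE, edgeR adjusted p = 0.00342). In deficient cells MYBL2 stood at 0.25 ± 0.13 (SE; edgeR adjusted p = 0.142), with the GC trend removed it fell by 0.32, and without resistant deficient replicate 2 it rose by 0.36. The proficient fall of MYBL2 did not pass without resistant proficient replicate 2 (-0.42). LIN9, a MuvB subunit, fell by 1.32 in proficient cells, E2F5 by 1.36 and RB1 by 1.18, of which RB1 lies on chromosome 13.

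TFDP1, the partner with which E2F proteins bind DNA, had the largest change of the G2/M transcription list. It was at 5.69 and 6.88 CPM in resistant deficient cells, against 135 and 128 CPM in parental deficient cells (-4.38 ± 0.11 SE, edgeR adjusted p = 6.18e-10). In proficient cells it was at 42.4 and 39.3 CPM in resistant proficient cells, against 65.6 and 71.1 CPM in parental proficient cells (-0.74 ± 0.09 SE, edgeR adjusted p = 4.18e-05). Both resistant lines were lower, and resistant deficient cells held the least TFDP1 of the 4 groups. TFDP1 too lies on chromosome 13. E2F7, a repressor of E2F targets, fell by 1.17 in deficient and 0.51 in proficient cells, and E2F1 rose by 1.11 in deficient cells, or 0.33 with the GC trend removed.

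Of 11 entry brakes and checkpoint kinases, 5 fell and 1 rose in proficient cells, and 4 fell and 1 rose in deficient cells. Once the GC trend was removed, 6 fell and 1 rose in proficient cells, and 3 fell and 3 rose in deficient cells. MASTL, the kinase that shields CDK1 substrates from dephosphorylation, fell by 0.96 in deficient and 0.95 in proficient cells. CHEK1, the checkpoint kinase that restrains CDC25, was at 109.9 and 109 CPM in resistant proficient cells, against 230.1 and 216 CPM in parental proficient cells (-1.03 ± 0.07 SE, edgeR adjusted p = 4.09e-07), and fell by 0.42 in deficient cells. CDC25A, a CDC25 phosphatase that acts earlier in the cycle, fell by 0.95 in proficient and 0.58 in deficient cells. In the anaphase-promoting complex list 8 of 17 fell and 1 rose in proficient cells, and 6 fell and 5 rose in deficient cells, where 35.3% and 29.4% are near the shares of all genes. After removal of the GC trend 9 fell and 4 rose in proficient cells, and 5 fell and 7 rose in deficient cells. Its inhibitor FBXO5 fell in both lines (-0.91 proficient, -0.59 deficient), and the subunit CDC23 fell in proficient cells (-0.46) and rose in deficient cells (0.49).

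Of 20 condensin, cohesin and separase genes, 15 fell and 1 rose in proficient cells, and 11 fell and 2 rose in deficient cells. With the GC trend removed, 15 fell and 3 rose in proficient cells, and 6 fell and 9 rose in deficient cells. Those deficient falls were 30% of the list, near the 27.4% of all genes, and the rises were 45%, beside 32.3%. STAG2, a cohesin subunit, was at 269 and 292 CPM in resistant proficient cells, against 650.3 and 596 CPM in parental proficient cells (-1.15 ± 0.07 SE, edgeR adjusted p = 2.74e-07). NCAPD3, a condensin subunit, fell in both lines (-0.57 proficient, -0.48 deficient). Of 34 other centromere and kinetochore genes, 14 fell and 3 rose in proficient cells and 9 fell and 6 rose in deficient cells, where 26.5% fell, close to the share of all genes. When the GC trend was removed, 12 fell and 9 rose in proficient cells, and 5 fell and 13 rose in deficient cells. SKA3 on chromosome 13 fell by 1.21 in proficient cells, while its complex partner SKA2 rose by 0.95. CENPI, of the centromere's inner protein network, also rose there, by 0.94, and fell by 0.66 in deficient cells. Of 29 other spindle and cytokinesis genes, 19 fell and 1 rose in proficient cells and 13 fell and 3 rose in deficient cells, and with the GC trend removed 22 fell and 1 rose in proficient cells and 12 fell and 7 rose in deficient cells. RACGAP1, the second subunit of centralspindlin, fell by 0.89 in proficient and 1.01 in deficient cells.

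The CDK inhibitors moved both ways, with 3 falls and 3 rises among 8 in proficient cells, and 3 falls and 2 rises in deficient cells. With the GC trend removed there were 3 falls and 3 rises in proficient cells, and 3 falls and 1 rise in deficient cells. The log2 fold changes of the list ranged from -0.77 to 2.60 in deficient cells and from -0.81 to 1.65 in proficient cells. The highest in deficient cells belonged to neither of the genes described next. With the GC trend removed the ranges were -0.61 to 1.78 in deficient cells and -0.82 to 1.60 in proficient cells. CDKN1A, which encodes p21, was at 26.8 and 22.1 CPM in resistant proficient cells, against 8.14 and 7.47 CPM in parental proficient cells, a 3.13-fold higher level (1.65 ± 0.16 SE, edgeR adjusted p = 6.81e-06). In deficient cells it was at 3.21 and 3.04 CPM in resistant deficient cells, against 2.5 and 2.12 CPM in parental deficient cells and did not pass (0.43 ± 0.19 SE, edgeR adjusted p = 0.0709). CDKN2B, which encodes p15, was at 95.3 and 96.0 CPM in resistant proficient cells, against 39.6 and 37.3 CPM in parental proficient cells (1.31 ± 0.09 SE, edgeR adjusted p = 3.08e-07). CDKN2B and CDKN1A were thus higher in resistant proficient cells in both libraries, while CDKN2B fell by 0.29 in deficient cells, a change that did not pass without resistant deficient replicate 1 (-0.27) or parental deficient replicate 2 (-0.28).

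For comparison, 20 genes of the G1/S transition and of replication moved both ways. In deficient cells 6 fell and 10 rose with resistance, and in proficient cells 7 fell and 5 rose. Once the GC trend was removed, 5 fell and 12 rose in deficient cells, and 6 fell and 7 rose in proficient cells. RRM2, a subunit of ribonucleotide reductase, rose by 0.46 in proficient cells. A difference between this list and the members was not tested.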

How the data were processed

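RNA-seq libraries of 4 groups, 2 each, were analysed from the deposited table of raw read counts per gene symbol. Per the submitters' processing notes, which give no order of steps, the authors named Trimmomatic 0.39, featureCounts, Subread 2.0.1, DESeq2 1.24.0 and the build GRCh37. The sources used here state neither strand setting nor annotation.

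The counts were tested with edgeR 4.0.16 in R 4.3.3: filterByExpr, TMM factors, 1 quasi-likelihood fit over the 4 groups with 4 residual degrees of freedom, two-sided, with Benjamini-Hochberg adjustment over 16221 genes. A gene rose or fell at an adjusted p under 0.05, with no fold threshold. CPM are scaled by TMM library sizes. For the GC alternative, each library's trend with transcript GC content (GENCODE transcripts, spline with 5 degrees of freedom) entered as offsets for 15665 genes. Chromosomes and promoters came from RefSeq GRCh38.p14. Where a gene had several windows, the first was used. The scripts were tested on simulated counts.

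The members and the gene lists were chosen with earlier results of these data known, so no test of a list was run. Values per library are given for each class's largest passing change in either resistance comparison, members passing against the majority, the 4 smallest p-values of the interaction, the largest change each way between parental lines and members passing in neither comparison. Up to 3 genes with the smallest p were eligible from each wider list and comparison, plus FOXM1, MYBL2 and CDKN1A. BORA, CDC20 and ASPM are given in the same detail, chosen after their values were seen. Alternatives were RLE factors, library totals, other filters, DESeq2 1.42.0, 2 groups alone, a replicate block and leaving out each library.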

Additional observations from a re-analysis of the deposited data

Results flagged for a closer look

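For 28 of the 44 members, the effect of resistance differed between BRCA1-proficient and BRCA1-deficient cells by a test of the difference itself (edgeR quasi-likelihood, interaction term, adjusted over all genes tested). A lower proficient effect was found for 54.5% of members, beside 25.3% of all genes tested. A higher one was found for 9.09% of members, beside 21.4% of all genes tested. The values below are the proficient log2 fold change minus the deficient one. Of the 24 with a lower proficient effect, PLK1 stood farthest apart, at -2.19, with HMMR at -1.65, BORA at -1.53, CKAP2 at -1.34, CDC25C at -1.24 and CENPA at -1.16. CDC20 was at -0.99, INCENP at -0.96, UBE2C at -0.92, AURKB at -0.89, CDCA8 at -0.73, AURKA at -0.72 and NDC80 at -0.72. TPX2 was at -0.59, CDC25B at -0.57, KIF20A at -0.52, SPC25 at -0.50, NEK2 at -0.47, PTTG1 at -0.43 and BUB1 at -0.40. MAD2L1 was at -0.39, KIF23 at -0.39, KIF2C at -0.28 and BIRC5 at -0.26. The 4 with a higher proficient effect were KIF4A at 1.02, ASPM at 0.64, DLGAP5 at 0.45 and CENPF at 0.37.

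Several of these did not pass once a library was left out. NEK2 did not pass without resistant deficient replicate 2, resistant proficient replicate 1 or parental proficient replicate 1 (-0.37 to -0.28), and the last 2 of these also ended the call of SPC25 (-0.38 and -0.40). KIF23 did not pass without those 3 libraries or without parental deficient replicate 1 (-0.32 to -0.23). DLGAP5 and CENPF did not pass without parental proficient replicate 2 (0.38 and 0.31). MAD2L1 passed only without parental deficient replicate 2, and lay at -0.42 to -0.26 without each of the others. KIF2C passed only without resistant proficient replicate 1, and lay at -0.29 to -0.14 without each of the others, while BIRC5 passed in none of the 8 (-0.26 to -0.15). BIRC5 also did not pass with the replicate block (-0.26), RLE factors (-0.24) or DESeq2 (-0.23), and neither BIRC5 nor KIF2C passed with library totals or another filter. The difference of CDC25B did not pass with the GC trend removed. CKAP2 and BORA lie on chromosome 13. No cause was tested.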

How the results depend on the processing

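Of 1128 recomputed values of 68 results on single members, 1048 kept their direction and their side of the threshold, 55 no longer passed, 9 newly passed and 16 changed sign. The GC trend mattered most. With it removed, with or without the replicate block, 11 members rose in deficient cells and the median was -0.10, and in proficient cells 2 rose and the median was -0.59. Between the parental lines it gave 11 falls, 17 rises and a median of 0.084, and between the resistant lines 35 falls, 6 rises and a median of -0.27, while the median difference of the resistance effects was -0.43. INCENP in deficient cells changed sign, to -0.16 in both of these fits.

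The replicate numbers were not treated as pairs, since same-numbered libraries deviated together with correlations of -0.13 to 0.21. Under the replicate block alone 37 members fell and 1 rose in proficient cells, and 28 fell and 4 rose in deficient cells. That 1 rise in proficient cells, where the reported count is 0, also appeared with RLE factors, library totals, no filter on low counts, a filter at 1 CPM in 2 libraries, DESeq2 and a fit of 2 groups alone. With library totals the medians were -0.59 for proficient resistance, 0.33 between parental lines and -0.28 for the difference of effects, and with the 1 CPM filter -0.60, 0.33 and -0.27. That last median was -0.28 with no filter on low counts, and a fit of the 2 parental groups alone gave 7 falls.

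Leaving out 1 library at a time gave 26 to 30 falls, 2 to 4 rises and medians of -0.42 to -0.30 in deficient cells, and 34 to 37 falls, 0 to 1 rises and medians of -0.71 to -0.60 in proficient cells. It gave 3 to 6 falls, 25 to 29 rises and medians of 0.32 to 0.45 between parental lines, and 14 to 15 falls, 16 to 21 rises and medians of 0.059 to 0.19 between resistant lines. For the difference of effects it gave 18 to 22 falls, 2 to 7 rises and medians of -0.36 to -0.22. Values near 0 changed sign: KIF4A in proficient cells was 0.007 with library totals, 0.0 at the 1 CPM filter, 0.0078 with the GC trend removed, with or without the block, and -0.080 to 0.037 without single libraries. CKAP2 in deficient cells was -0.0069 with no filter, -0.0058 at the 1 CPM filter, -0.018 in 2 groups alone and -0.071 to 0.032 without single libraries. With the GC trend removed, with or without the block, CKAP2 was at 0.33 there and passed as a rise. The cause was not tested.

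With 2 libraries a group, each estimate of spread rests on all 8 libraries together. All 44 members were well covered, the least abundant at 10.2 CPM in its lowest library, so depth limits them little. The strand setting, annotation release and handling of multiply matching reads were not stated, so reads of antisense or near-identical genes cannot be told apart.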
